A study of Mus musculus with 20 samples.

Results

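The account concerns 34 transcripts that mark the 3 main neural cell types of the brain, followed in RNA from sorted mouse microglia. They were found by their symbols in a table of 24394 genes: 13 mark neurons or the cells that give rise to them, 11 mark astrocytes and 10 mark oligodendrocytes or their precursors. All 34 passed the filter on low counts. Microglia, the resident macrophages of the brain, had been isolated by fluorescence-activated cell sorting at embryonic day 16 (E16; E16.5 in the series' design text), postnatal day 15 (P15) and postnatal day 60 (P60). Control and T2MG animals gave 3 libraries each at E16 and at P15 and 4 each at P60, which makes 6 groups and 20 libraries. T2MG is labelled as a genotype without TGF-beta signaling, an entry left blank for P60 T2MG 4, which was placed by its title, and the design text speaks of microglia without one or both copies of Tgfbr2, which encodes a receptor of that cytokine. The strain entry, C57Bl6; FVB, is shared by every library, and no treatment is named. Nothing in the sources used here gives the Control genotype, the driver of the deletion or the sort gates.

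Neurons signal through synapses, astrocytes take up transmitters and water and support neurons, and oligodendrocytes wrap axons in myelin. Microglia engulf synapses, myelin and dying cells, and sorted fractions can carry transcripts of other brain cells. Newborn neurons, radial glia and other progenitors are abundant in the embryonic brain, and myelin is laid down after birth.

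Library depth was 7456271 to 9241860 counts at E16, 14546425 to 16468744 counts at P15 and 12746382 to 16551240 at P60. Levels below are counts-per-million (CPM) on scaled library sizes, and 3 counts in a library correspond to 0.189 to 0.304 CPM. Tgfbr2 itself had 196 to 293 CPM in Control against 165 to 232 CPM in T2MG libraries at E16, 501 to 642 and 228 to 471 CPM at P15, and 551 to 649 and 452 to 647 CPM at P60, so that a whole-gene count separated the genotypes at P15 but not at E16 or P60. A list of 12 microglial markers summed to 7957 to 16086 CPM in E16 Control against 4424 to 6393 CPM in E16 T2MG libraries, to 34765 to 51761 and 7449.9 to 12292 CPM at P15, and to 59774 to 81366 and 14531 to 15861 CPM at P60. The labelled cell type was therefore represented in every library, at a lower summed level in T2MG. The library P60 Control 1 stood apart from the other 3 of its group: its summed neuron members came to 25.4 CPM against 5.68 to 9.05, its choroid plexus and ependyma markers to 4292 CPM against 348 to 949.9, and its neutrophil markers to 5796 CPM against 64.9 to 126. The members whose calls at P60 depend on it are named with their values without it.

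The promoters of 4 members are shown because these members moved in different directions in T2MG against Control at P15 and P60. Slc1a3 and Slc1a2 encode the 2 main glutamate transporters of astrocytes and took opposite courses at those stages, where Gfap rose and Nes fell. At E16 both transporters had higher levels in T2MG, and neither was called. Each line gives 300 bases, 250 before and 50 after a start of transcription, from RefSeq (GRCm38.p6); 24 of the 34 members had an entry. Capitals mark matches, on either strand, to TTCNNNGAA (the letters of STAT factor sites) or to CAGAC (the SMAD motif); GAGGAAGT, the PU.1 motif, was searched on both strands as well, and no matches overlapped one another.
Slc1a3: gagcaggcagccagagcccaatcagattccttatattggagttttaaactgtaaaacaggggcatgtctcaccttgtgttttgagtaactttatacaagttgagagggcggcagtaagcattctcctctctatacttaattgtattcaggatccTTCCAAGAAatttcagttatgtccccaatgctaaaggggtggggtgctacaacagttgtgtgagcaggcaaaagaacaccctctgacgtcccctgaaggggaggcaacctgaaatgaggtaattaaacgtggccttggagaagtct
Slc1a2: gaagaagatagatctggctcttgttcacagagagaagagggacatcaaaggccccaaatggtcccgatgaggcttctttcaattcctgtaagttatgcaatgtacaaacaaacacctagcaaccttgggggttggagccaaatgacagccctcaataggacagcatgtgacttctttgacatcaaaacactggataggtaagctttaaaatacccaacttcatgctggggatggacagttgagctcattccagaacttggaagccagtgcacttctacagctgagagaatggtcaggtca
Gfap: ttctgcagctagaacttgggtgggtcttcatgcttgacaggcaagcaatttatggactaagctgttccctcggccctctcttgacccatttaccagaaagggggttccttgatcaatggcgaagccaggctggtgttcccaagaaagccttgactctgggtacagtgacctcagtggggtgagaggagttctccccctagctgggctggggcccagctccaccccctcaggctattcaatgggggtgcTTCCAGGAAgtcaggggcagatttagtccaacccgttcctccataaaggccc
Nes: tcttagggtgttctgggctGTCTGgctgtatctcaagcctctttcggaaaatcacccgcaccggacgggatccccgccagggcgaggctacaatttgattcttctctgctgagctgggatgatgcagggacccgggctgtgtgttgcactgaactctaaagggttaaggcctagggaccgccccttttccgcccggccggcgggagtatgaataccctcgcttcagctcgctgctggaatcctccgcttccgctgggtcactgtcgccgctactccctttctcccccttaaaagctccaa
The windows were chr15:8710758-8711057 on the minus strand for Slc1a3, chr2:102706188-102706487 on the plus strand for Slc1a2, chr11:102897151-102897450 on the minus strand for Gfap and chr3:87970843-87971142 on the plus strand for Nes. The Slc1a2 window belongs to an internal start, 47779 bases inside the outermost start of the gene in GENCODE M21, and the Gfap window to a start 3712 bases inside the outermost one. Promoters at other starts were not searched. Slc1a3 held 1 STAT match that began 96 bases before the start. Gfap held 1 STAT match that began 2 bases before the start and ran across it. Nes held 1 SMAD match 231 bases before the start, and the Slc1a2 window held no match. Of 32544 promoters of this length, 8.33% held the STAT letters, 49.5% the SMAD letters and 3.11% the PU.1 letters. The matches describe letters only.

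The 3 classes followed different courses over the stages. The 13 neuron members summed to 609, 936 and 1268 CPM in the E16 Control libraries and to 1713, 2017 and 1699 CPM in the E16 T2MG libraries. At P15 the sums were 9.7, 38.2 and 16.8 CPM in Control against 39.1, 65.2 and 85.9 CPM in T2MG. At P60 they were 25.4, 5.68, 9.05 and 7.52 CPM in Control against 59.2, 41.4, 44.3 and 51.4 CPM in T2MG. T2MG libraries thus lay above every Control library of their stage, and neuron members made up 68.7% to 80.9% of the summed level of all 34 members at E16 but at most 6.12% later. Fewer cells of a type and less RNA per cell cannot be told apart in bulk libraries.

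**Figure D1:**
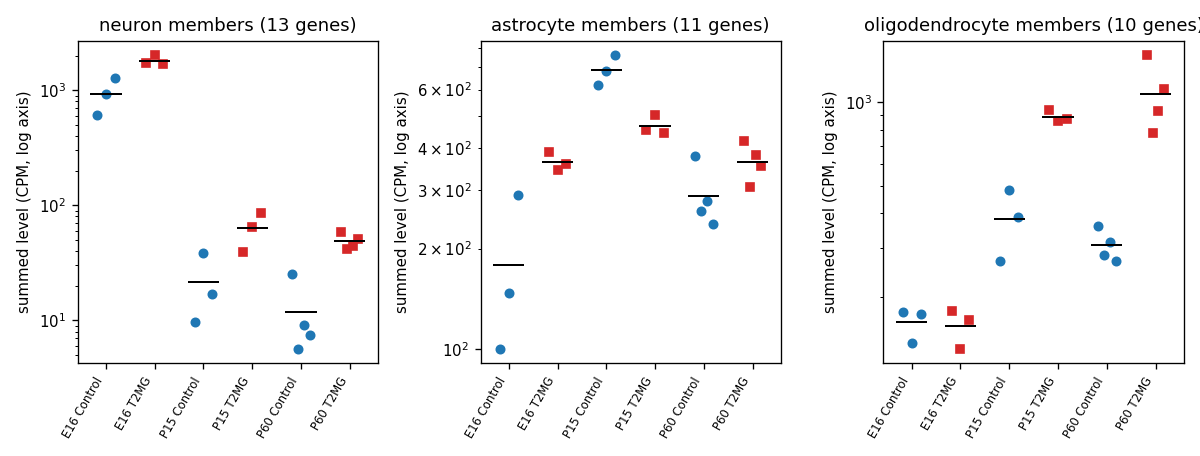
Summed CPM (log axis) of the 13 neuron, 11 astrocyte and 10 oligodendrocyte members in each library, by group; circles are Control, squares T2MG and bars group means. T2MG libraries lay above Control libraries for neuron members at every stage and for oligodendrocyte members at P15 and P60, whereas astrocyte sums were lower in T2MG at P15.

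Oligodendrocyte members summed to 137 to 177 CPM in E16 Control and to 131 to 178 CPM in E16 T2MG libraries. Their sums were 269, 487 and 389 CPM in P15 Control against 941, 857 and 872 CPM in P15 T2MG libraries, and 361, 283, 316 and 269 CPM in P60 Control against 1477, 779, 933 and 1115 CPM in P60 T2MG libraries. The genotypes overlapped at E16 and did not overlap at P15 or P60. Mbp carried most of the P15 difference, with a mean of 196 ± 91.8 CPM (SD, n = 3) in Control and 676 ± 45.8 (n = 3) in T2MG. The 5 lineage factors and precursor markers summed to 20.2 ± 4.51 and 16.2 ± 2.46 CPM at P15 (n = 3 each), and to 6.79 ± 4.2 and 56.9 ± 16.2 CPM at P60 (n = 4 each). Without Mbp, Cnp and Mag, the E16 sums were 20.9 to 58.5 CPM in Control against 47.5 to 79.3 CPM in T2MG, and overlapped. At P15 they were 28.4 to 32.6 against 43.4 to 52.3 CPM, and at P60 6.75 to 27.5 against 89.8 to 162 CPM. Leaving out Mbp, Cnp and Mag was not planned beforehand, and each had a lower mean in T2MG at E16. Astrocyte members gave another picture, because Slc1a3 and Clu carried much of their sum. With all 11, the sums were 100.1, 147 and 289 CPM in E16 Control, 389, 344 and 358 CPM in E16 T2MG, 619, 683 and 761 CPM in P15 Control against 454, 502 and 446 CPM in P15 T2MG. At P60 they were 378, 259, 277 and 237 CPM in Control against 421, 305, 381 and 353 CPM in T2MG. Without Slc1a3 and Clu, the mean sum was 140.1 ± 74.3 CPM (SD, n = 3) in Control and 291 ± 14.0 (n = 3) in T2MG at E16, 141 ± 8.8 and 223 ± 36.4 (n = 3 each) at P15, and 23.6 ± 19.2 and 147 ± 26.2 (n = 4 each) at P60. The T2MG libraries were then the higher ones at every stage; the pair left out was chosen after its values were seen.

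**Figure D2:**
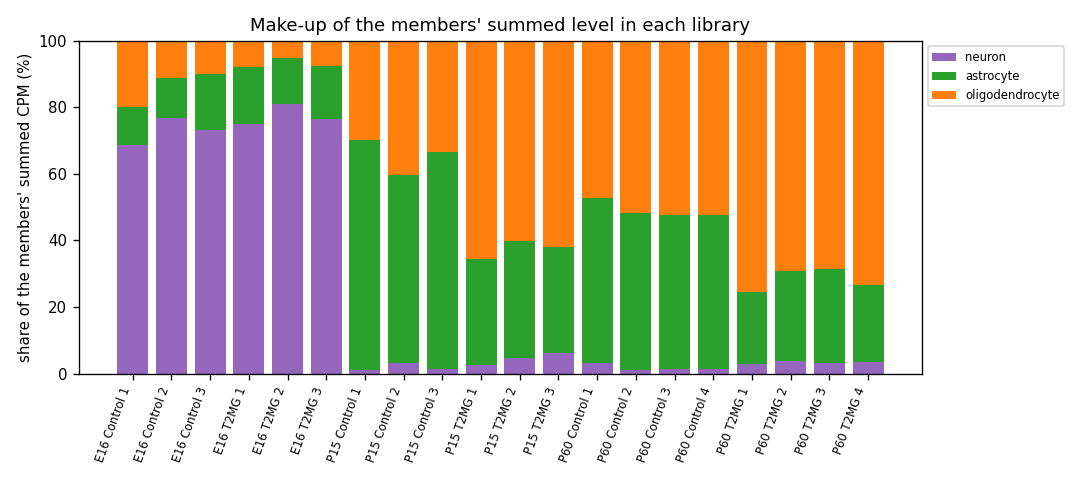
Share (%) of the summed CPM of all 34 members taken by neuron, astrocyte and oligodendrocyte members in each of the 20 libraries. Neuron members dominated at E16; oligodendrocyte members took 60.2% to 65.6% in P15 T2MG against 30.0% to 40.3% in P15 Control, and 68.7% to 75.5% in P60 T2MG against 47.2% to 52.4% in P60 Control.

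Control libraries alone showed the stage differences without the genotype. Between E16 and P15, 16 members fell and 8 rose, against a background of 50.7% of all 15568 genes tested, 26.7% falling and 24% rising. Of the neuron members 12 of 13 fell, with Snap25, a synaptic fusion protein, as the exception (log2 fold change -0.56 ± 0.64, SE, adjusted p = 0.479). Dcx, a microtubule protein of migrating neurons, went from 42.4, 86.9 and 105 CPM to 0 in all 3 P15 libraries, at least 1235-fold lower against a floor of 3 counts over the group. Tubb3, the neuronal beta-tubulin, had 135, 182 and 265 CPM at E16 and 0.315, 0.677 and 0.51 CPM at P15. The neuron members had a median log2 fold change of -5.15, and the median of all genes was -0.02. Rises were seen for 5 astrocyte members (Gfap, Aqp4, Slc1a3, Mlc1, Clu) and for 3 myelin genes (Mbp, Mobp, Mag). Clu, a secreted chaperone that the choroid plexus also makes, had 6.83, 3.84 and 20 CPM at E16 and 359.5, 295 and 478 CPM at P15, while the summed choroid plexus and ependyma markers went from 42.7 to 159.6 CPM to 9533 to 18306 CPM. The part of those cells in the rise of Clu was not tested. Without scaling of libraries the median of all genes in this comparison was -0.4. Leaving out P15 Control 2 ended the call on Mlc1 (log2 fold change 0.71, adjusted p = 0.379).

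Between P15 and P60, 13 members fell in Control and 0 rose, where 13% of all genes fell and 5.61% rose. Of the astrocyte members 9 of 11 fell, Slc1a3 and Fgfr3 being the others. Sox9, a transcription factor of glial cells, had 39.6, 26.6 and 57.5 CPM at P15 and 12.2, 1.56, 1.59 and 0.96 CPM at P60, a log2 fold change of -3.32 ± 0.65 (adjusted p = 0.00356) and of -4.89 without P60 Control 1. Gja1, the gap junction protein connexin 43, fell from 54.7, 42.8 and 20.6 CPM to 7.9, 3.84, 5.94 and 1.52 CPM (log2 fold change -3.03 ± 0.48, adjusted p = 0.00115). The choroid plexus and ependyma markers had a summed level of 9533 to 18306 CPM at P15 and 348 to 4292 CPM at P60, and their part in these falls was not tested. The count of 13 was 8 without P15 Control 2 (7 lower and 1 higher) and 18 without P60 Control 1 (17 lower and 1 higher). By level per kilobase of exon, the highest neuron members in Control were Tubb3 (104 ± 35.3 CPM per kb, SD, n = 3) and Neurod6 (32.2 ± 15.2) at E16, and Snap25 at P15 (3.46 ± 2.5) and P60 (1.9 ± 2.15, n = 4). Neurod6 and Sox11 (31.3 ± 11.9 CPM per kb) did not differ beyond their spread at E16. Among astrocyte members Gja1 (20.3 CPM per kb) led at E16, Clu (209) at P15 and Slc1a3 (48.7) at P60, and Cnp led the oligodendrocyte members at every stage with 37.8, 52.6 and 57.4 CPM per kb.

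At E16, edgeR called 0 of the 34 members different between T2MG and Control, where 3.2% of all genes were called, 0.527% as higher and 2.67% as lower. Of the 32 members with more than 3 counts in either group, 28 had a higher and 4 a lower fitted level in T2MG, with a median log2 fold change of 1.0 against 0.04 over all genes. The levels of 18 members were higher in all 3 T2MG than in all 3 Control libraries, an arrangement found for 19.3% of all genes, and 1 (Cnp) was lower in all, against 15.1% of all genes. An unadjusted p under 0.05 was reached by 13 members, DESeq2 called 4 and limma voom 11, all higher. Over all genes, 2688 of 15568 reached such a p. DESeq2 called 961 of 11261 genes and limma voom 1198 of 15568, more than the 498 called by edgeR. Tubb3 had 312, 409 and 321 CPM in T2MG against 135, 182 and 265 CPM in Control (log2 fold change 0.84 ± 0.32, adjusted p = 0.18). Map2, a dendritic microtubule protein, had 35.8, 84.4 and 131 CPM in Control against 190.1, 258 and 219 CPM in T2MG (log2 fold change 1.41 ± 0.39, adjusted p = 0.0556). Sox11, a transcription factor of newborn neurons, had 164, 254 and 362 CPM in Control against 529, 589 and 528 CPM in T2MG (1.08 ± 0.35, adjusted p = 0.108). Neurod6, a transcription factor of cortical projection neurons, had 40.7, 62.4 and 105 CPM in Control against 152, 182 and 99.6 CPM in T2MG, and its groups overlapped. E16 Control 3 had the highest neuron and astrocyte sums of its group. Without it edgeR called 4 members, all higher, and 961 of all 15839 genes. The count of members was also 4 without P60 Control 1, 3 without P15 T2MG 3, 2 without P15 T2MG 2 and 1 without P15 T2MG 1, all higher. Over all genes these fits called 740, 724, 585 and 538, where the reported fit called 498. The libraries left out there are of other stages and enter only through the shared estimate of spread, the scaling and the filter. In the same libraries endothelial and pericyte markers summed to 61.2 to 118 CPM in Control against 128 to 144 CPM in T2MG, and microglial markers were lower in T2MG as given above; their part in these values was not tested.

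Astrocyte members leaned the same way at E16, with fitted values above 0 for all 10 that had a usable fold change. Gja1 had 41.5, 57.5 and 106 CPM in Control against 143, 128 and 90.6 CPM in T2MG. Sox9 had 20.2, 26.1 and 56.7 CPM in Control against 75.6, 78.1 and 99.6 CPM in T2MG (log2 fold change 1.3 ± 0.66, adjusted p = 0.323). Among oligodendrocyte members, the 5 lineage factors and precursor markers were all above 0 (median log2 fold change 0.95), none of them called. Olig1 had 3.66, 4.86 and 5.09 CPM in Control against 14.4, 9.79 and 10.6 CPM in T2MG, and Olig2 had 3.66, 4.75 and 4.69 CPM against 11.3, 7.85 and 11.6 CPM. The genotypes overlapped for neither (log2 fold changes 1.35 ± 0.54 and 1.23 ± 0.63, adjusted p = 0.207 and 0.328). Of the 4 myelin genes with a usable fold change only Mog was above 0 (0.45 ± 0.95, adjusted p = 0.844). Mbp, which encodes myelin basic protein, had 31.7, 33.0 and 38.6 CPM in Control against 30.9, 23.7 and 33.9 CPM in T2MG. Cnp, an enzyme of the myelin sheath, had 117, 77.7 and 73.0 CPM in Control against 64.3, 55.9 and 62.4 CPM in T2MG (log2 fold change -0.55 ± 0.21, adjusted p = 0.172). Gfap, the intermediate filament of mature and reactive astrocytes, and Mobp, a myelin protein, were at or under 3 counts in each group at E16 and have no fold change.

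At P60, 28 members rose in T2MG, 2 fell and 4 did not pass the test, where 39.3% of all genes were called, 23.5% as higher and 15.7% as lower. The groups did not overlap for 29 members that were higher, against 22.2% of all genes, and for 1 that was lower (Slc1a3), against 16.2%. Without P60 Control 1, 31 rose and 2 fell. The median log2 fold change was 2.56 over the members and 0.14 over all genes. It was 2.19 for neuron, 2.45 for astrocyte and 2.82 for oligodendrocyte members. Beside these values, the choroid plexus and ependyma markers summed to 348 to 4292 CPM in Control against 3889.6 to 7265 CPM in T2MG, and border-associated macrophage markers to 237 to 724 and 8282 to 14367 CPM. Endothelial and pericyte markers summed to 34.2 to 73.9 CPM in Control against 33.4 to 58.5 CPM in T2MG. Whether these cells have a part in the rises was not tested.

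**Figure D3:**
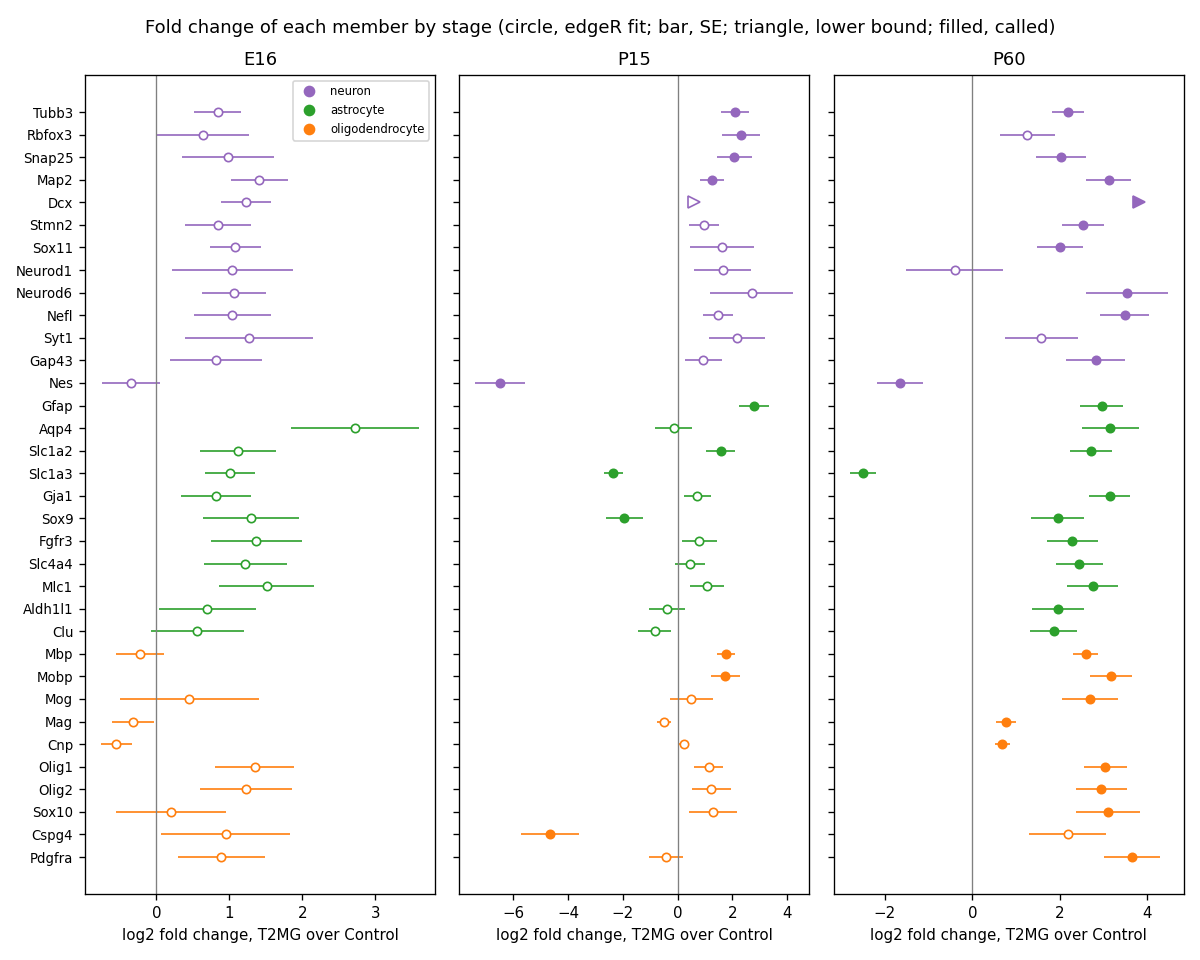
Log2 fold change of T2MG over Control for each member at E16, P15 and P60; circles are edgeR fits with SE bars, triangles lower bounds where Control had 0 counts, and filled symbols passed an adjusted p of 0.05. No member is filled at E16, 12 are at P15 in both directions, and 30 are at P60, with Slc1a3 and Nes to the left of 0.

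Of the neuron members at P60, 9 rose, Nes fell, and Rbfox3, Neurod1 and Syt1 did not pass the test. Tubb3 had 2.36, 0.355, 0.941 and 0.64 CPM in Control against 5.99, 4.01, 4.52 and 5.39 CPM in T2MG. Map2 had 0.485, 0.355, 0.289 and 0.48 CPM in Control against 3.38, 4.01, 1.95 and 4.89 CPM in T2MG. Both rose without overlap, Tubb3 by a log2 fold change of 2.19 ± 0.37 (adjusted p = 0.000133) and Map2 by 3.12 ± 0.51 (adjusted p = 9.92e-05). Snap25 had 11.4, 1.35, 2.24 and 1.92 CPM in Control against 21.5, 12.3, 17 and 18.4 CPM in T2MG; the Control value of 11.4 was that of P60 Control 1, without which the log2 fold change of 2.02 became 3.23. Nefl, the neurofilament light chain, had 0.346, 0.426, 0.145 and 0.8 CPM in Control against 6.62, 4.72, 3.98 and 3.95 CPM in T2MG (3.48 ± 0.56, adjusted p = 9.36e-05). Nefl shares 1108 exonic bases with Nefm on the other strand, and strand use in the counting is not stated. Stmn2, a microtubule regulator of growing axons, had 1.52, 0.213, 0.651 and 0.64 CPM in Control against 4.37, 3.92, 3.74 and 5.68 CPM in T2MG. Gap43, a growth cone protein, had 1.66, 0.142, 0.362 and 0.16 CPM in Control against 5.49, 3.48, 2.81 and 5.17 CPM in T2MG. Stmn2 rose by 2.53 ± 0.49 and Gap43 by 2.82 ± 0.68 on the log2 scale, 3.13 and 4.2 without P60 Control 1.

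Markers of newborn neurons were at or near 0 in P60 Control. Dcx had 0 counts in all 4 Control libraries and 1.06, 0.624, 0.702 and 0.647 CPM in T2MG, at least 14.0-fold higher against 3 counts over the Control group. Neurod6 had 0.208, 0, 0 and 0 CPM in Control against 1.13, 0.356, 0.234 and 1.15 CPM in T2MG, a ratio of summed levels of 13.7 with a 95% exact interval of 4.34 to 69.1 that covers counting error only. Both stayed close to the level of a few reads. Sox11 had 0.139, 0.568, 0.507 and 0.32 CPM in Control against 1.34, 1.25, 2.18 and 1.51 CPM in T2MG, where E16 libraries had 164 CPM or more. Neurod1, a neuronal differentiation factor, and Syt1, the calcium sensor of synaptic vesicles, were called at none of the 3 stages with all libraries, but both were called at P60 without P60 Control 1. Neurod1 had 1.39 CPM in that library, 0 in the other 3 Control libraries and 0.211, 0.0891, 0.702 and 0.0718 CPM in T2MG. With all libraries its mean was lower in T2MG (0.268 against 0.346 CPM, adjusted p = 0.807). Without P60 Control 1 its direction reversed, to a log2 fold change of 4.84 ± 1.79 (adjusted p = 0.0366). The size of that value is uncertain, because Control then held 0 counts. Syt1 had 3.81, 0, 0.507 and 0.24 CPM in Control against 4.3, 3.83, 3.82 and 1.87 CPM in T2MG, a log2 fold change of 1.58 ± 0.83 (adjusted p = 0.142) and of 3.75 ± 0.78 without P60 Control 1 (adjusted p = 0.00078). Rbfox3, the splicing factor detected as NeuN, had 1.32, 0.994, 0.145 and 1.68 CPM in Control against 3.31, 1.96, 2.34 and 2.3 CPM in T2MG, and its groups did not overlap (1.26 ± 0.62, adjusted p = 0.118, or 0.102 without P60 Control 1).

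Of the astrocyte members at P60, 10 rose and Slc1a3 fell. Gja1 had 7.9, 3.84, 5.94 and 1.52 CPM in Control against 43.6, 34.1, 57.3 and 35.8 CPM in T2MG (log2 fold change 3.14 ± 0.47, adjusted p = 3.99e-05). Aqp4, the water channel of astrocyte endfeet, had 1.32, 0.497, 0.941 and 0.64 CPM in Control against 10.6, 9.8, 5.46 and 4.74 CPM in T2MG (3.15 ± 0.65, adjusted p = 0.000868). In neither did the groups overlap. Slc4a4, a bicarbonate cotransporter, had 1.32, 0.781, 0.796 and 0.32 CPM in Control against 6.76, 3.39, 4.99 and 2.66 CPM in T2MG. Mlc1, a membrane protein of astrocyte endfeet, had 4.5, 1.07, 2.17 and 0.88 CPM in Control against 15.8, 20.5, 10.1 and 12.1 CPM in T2MG. The log2 fold change was 2.45 ± 0.53 for Slc4a4 and 2.75 ± 0.58 for Mlc1, the latter 3.4 without P60 Control 1. Fgfr3, a growth factor receptor of astrocytes and progenitors, had 2.63, 2.06, 2.46 and 0.48 CPM in Control against 15, 5.35, 8.65 and 8.55 CPM in T2MG (2.29 ± 0.58, adjusted p = 0.00441).

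For Sox9, Aldh1l1 and Clu the size of the rise depended on P60 Control 1. Sox9 had 12.2, 1.56, 1.59 and 0.96 CPM in Control against 15, 13.8, 14.4 and 20.5 CPM in T2MG. Aldh1l1, an enzyme of folate metabolism that marks astrocytes, had 12.5, 1.63, 1.45 and 0.8 CPM in Control against 17.8, 12.7, 15.7 and 17.7 CPM in T2MG. Clu had 122, 15.2, 33.7 and 26.8 CPM in Control against 188, 149.6, 193 and 191 CPM in T2MG. The log2 fold changes were 1.95 ± 0.61 for Sox9, 1.96 ± 0.6 for Aldh1l1 and 1.86 ± 0.54 for Clu, and without that library they were 3.52, 3.61 and 2.84. The calls on Sox9 and Aldh1l1 ended when the fit held only the P60 groups, and that on Sox9 also without P60 Control 2 or Control 3 (adjusted p = 0.0519 and 0.0508).

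Of the oligodendrocyte members at P60, 9 rose and Cspg4 did not pass the test. Mbp had 152, 93.2, 110.2 and 77.9 CPM in Control against 995, 446, 567 and 594 CPM in T2MG (log2 fold change 2.59 ± 0.29, adjusted p = 2e-06). Mobp had 4.09, 2.84, 10.8 and 5.12 CPM in Control against 70.8, 41.4, 37.8 and 55.2 CPM in T2MG (3.17 ± 0.48, adjusted p = 4.41e-05). Mog, a glycoprotein on the outer face of myelin, had 2.36, 1.35, 4.71 and 2.08 CPM in Control against 23.6, 15.5, 7.33 and 21.7 CPM in T2MG (2.69 ± 0.64, adjusted p = 0.00277). None of these groups overlapped. Mag and Cnp moved less: Mag, an adhesion protein facing the axon, had 38.9, 46.0, 54.5 and 54.5 CPM in Control against 88.0, 64.2, 61.6 and 118 CPM in T2MG (0.77 ± 0.22, adjusted p = 0.00968), a call that ended without P60 T2MG 4 (adjusted p = 0.0528). Cnp had 156, 137, 123 and 125 CPM in Control against 232, 179, 197 and 262 CPM in T2MG (0.69 ± 0.18, adjusted p = 0.0051). The ratio of Cnp to Mbp, both per kilobase, was 3.54 to 5.53 in Control and 0.804 to 1.52 in T2MG, and that of Mag to Mog was 8.09 to 23.8 and 2.6 to 5.87. These genotype ranges did not overlap. The ratio of Mbp to Mobp, 5.9 to 21.4 in Control and 6.21 to 8.65 in T2MG, did overlap.

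The transcription factors of the oligodendrocyte lineage rose together at P60. Olig1 had 5.61, 1.28, 7.24 and 2.4 CPM in Control against 41.1, 22.9, 35.2 and 36.9 CPM in T2MG (log2 fold change 3.04 ± 0.49, adjusted p = 8.75e-05). Olig2 had 0.139, 0.497, 2.17 and 0.88 CPM in Control against 8.24, 3.39, 7.48 and 9.48 CPM in T2MG (2.95 ± 0.59, and 3.82 without P60 Control 3). Sox10 had 0.554, 0.639, 1.59 and 0.4 CPM in Control against 8.31, 3.74, 6.86 and 8.77 CPM in T2MG (3.1 ± 0.73, adjusted p = 0.00255). In each the groups were apart. Pdgfra, a growth factor receptor of oligodendrocyte precursors that fibroblasts also carry, had 0.554, 0.142, 0.869 and 0.64 CPM in Control against 8.31, 1.78, 10.3 and 7.62 CPM in T2MG (3.65 ± 0.63, adjusted p = 0.000171). Fibroblast markers summed to 1.42 to 13.2 CPM in Control against 20.2 to 48.6 CPM in T2MG, and their part in the Pdgfra value was not tested. Cspg4, the NG2 proteoglycan of precursors and pericytes, had 1.32, 0, 0.145 and 0.08 CPM in Control against 1.76, 1.07, 2.03 and 2.37 CPM in T2MG (2.18 ± 0.88, adjusted p = 0.0568, and 4.44 ± 0.95, adjusted p = 0.000986, without P60 Control 1).

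At P15 the members were divided: 8 rose, 4 fell and 22 did not pass the test (4 rose and 5 fell in a fit of the P15 groups alone), where 11.7% of all genes rose and 12.3% fell. The groups did not overlap for 6 members that were higher and 5 that were lower, against 17.6% and 19.6% of all genes. In the reported fit only the share of members that rose was above that of all genes. The share that fell and both shares without overlap were near or below that of all genes. The count that rose was not stable: it was 3 without P15 Control 1, Control 3 or T2MG 3. Over all genes these 3 fits called 2979 of 15851, 2470 of 15858 and 2833 of 15855 in either direction. The fit of the P15 groups alone called 2209 of 13690. The median log2 fold change was 1.11, or 1.02 with Dcx at its bound. Mbp had 101, 285 and 203 CPM in Control against 699.9, 623 and 705 CPM in T2MG (log2 fold change 1.78 ± 0.33, adjusted p = 0.000795). Mobp had 3.15, 14.6 and 8.86 CPM in Control against 23.8, 28.9 and 36.2 CPM in T2MG (1.74 ± 0.52, adjusted p = 0.0213). The other myelin genes did not pass the test. Cnp had 115, 131 and 125 CPM in Control against 168, 167 and 97.9 CPM in T2MG, and Mag leaned the other way with 23.8, 38.1 and 32.1 CPM in Control against 27.9, 22.7 and 16.2 CPM in T2MG (-0.49 ± 0.26, adjusted p = 0.176).

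Beside the P15 rises, border-associated macrophage markers summed to 714 to 802 CPM in Control against 3449.9 to 5660.1 CPM in T2MG, with 6 of 9 higher. Lymphocyte markers summed to 64.1 to 182 and 228 to 253 CPM and neutrophil markers to 1978 to 6078 and 4868 to 21992 CPM in Control and T2MG, the latter overlapping, with no gene of either list called. Their part in the rises was not tested.

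The neuron members that rose at P15 were Tubb3, Rbfox3, Snap25 and Map2. Tubb3 had 0.315, 0.677 and 0.51 CPM in Control against 1.97, 1.96 and 2.53 CPM in T2MG (log2 fold change 2.09 ± 0.5, adjusted p = 0.00549), and limma voom gave it an adjusted p of 0.0616. Rbfox3 had 0.252, 2.91 and 0.51 CPM in Control against 3.86, 4.7 and 9.65 CPM in T2MG. Snap25 had 3.09, 13.9 and 6.18 CPM in Control against 19.4, 31.5 and 46.3 CPM in T2MG. In both of the latter P15 Control 2 was the highest Control library and P15 T2MG 3 the highest of all; without P15 Control 2 the log2 fold change of Rbfox3 went from 2.31 to 3.96 and that of Snap25 from 2.07 to 2.8. Map2 had 1.57, 2.64 and 2.87 CPM in Control against 2.65, 6.66 and 7.68 CPM in T2MG, which overlap (1.26 ± 0.44, adjusted p = 0.047). Without P15 Control 1, Control 3 or T2MG 3 only 6 members were called, 3 in each direction; Rbfox3, Snap25, Map2, Mobp, Slc1a2 and Sox9 lost their calls in each of these fits.

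The members that fell at P15 were Nes, Slc1a3, Sox9 and Cspg4. Nes, the intermediate filament nestin of neural progenitors and of growing vessels, had 3.15, 4.4 and 1.66 CPM in Control against 0, 0 and 0.0817 CPM in T2MG. With 1 count in the T2MG group, the ratio of summed levels was 0.00806, with an exact 95% interval of 0.000203 to 0.0457 for counting error (adjusted p = 6.4e-05). Cspg4 had 14.5, 3.38 and 11.9 CPM in Control against 0.605, 0.522 and 0 CPM in T2MG (log2 fold change -4.66 ± 1.06, adjusted p = 0.00392). Sox9 had 39.6, 26.6 and 57.5 CPM in Control against 16.6, 10.6 and 4.74 CPM in T2MG (-1.95 ± 0.68, adjusted p = 0.0445). None of the 3 overlapped between the groups. In the same libraries the choroid plexus and ependyma markers summed to 12514, 9533 and 18306 CPM in Control against 4442, 4458 and 1353 CPM in T2MG, and 3 of the 11 tested fell. Endothelial and pericyte markers summed to 111, 52.7 and 83.8 CPM in Control against 40.0, 47.0 and 34.3 CPM in T2MG. Of these 14 markers 2 fell, a share near the 12.3% of all genes that fell. The median log2 fold change was 0.43 for this list and -2.08 for the choroid plexus and ependyma list. The part of these cells in the falls was not tested.

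**Figure D4:**
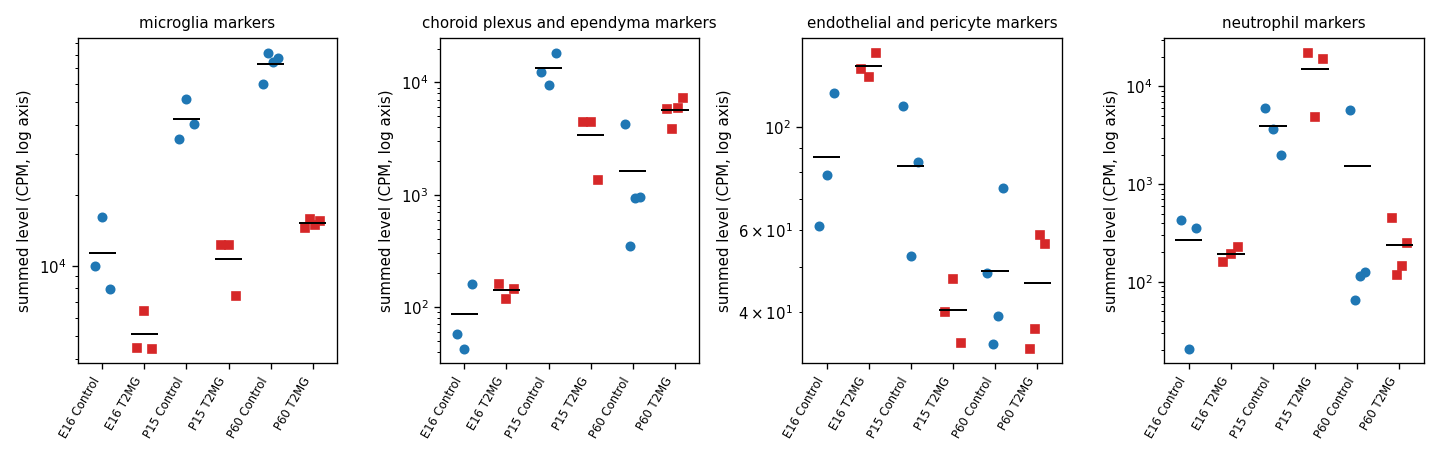
Summed CPM (log axis) of markers of microglia, choroid plexus and ependyma, endothelial cells and pericytes, and neutrophils in each library; circles are Control, squares T2MG, bars group means. Microglial markers were lower in T2MG at each stage, choroid plexus and ependyma markers were lower in T2MG at P15, and P60 Control 1 lay above the rest of its group for choroid plexus and neutrophil markers.

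Slc1a3 and Slc1a2 are the astrocytic glutamate transporters GLAST and GLT-1; Slc1a3 transcripts have also been described in microglia. Slc1a3 had 12.7, 26.6 and 45.5 CPM in E16 Control against 61.1, 56.6 and 53.9 CPM in E16 T2MG libraries. At P15 it had 125, 237 and 145 CPM in Control against 27.7, 29.4 and 42.5 CPM in T2MG, and at P60 204, 229, 224 and 201 CPM in Control against 53.0, 34.3, 36.8 and 27.7 CPM in T2MG. The groups did not overlap at any stage, with T2MG the higher at E16 and the lower at P15 and P60. The log2 fold change was 1.01 ± 0.34 at E16 (adjusted p = 0.116), -2.35 ± 0.35 at P15 (adjusted p = 0.000114) and -2.5 ± 0.3 at P60 (adjusted p = 3.99e-06). The change of this effect from E16 to P15 was -3.36 ± 0.48 (adjusted p = 0.00039), and from P15 to P60 -0.15 ± 0.44 (adjusted p = 0.884). The library P60 Control 1 had 204 CPM of Slc1a3, within the range of its group, whereas its Gfap, Sox9 and Aldh1l1 levels were far above the other 3.

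Slc1a2 had 2.97, 3.95 and 6.39 CPM in E16 Control against 8.07, 10.1 and 10.8 CPM in E16 T2MG libraries. At P15 it had 2.27, 10.8 and 6.95 CPM in Control against 9.38, 16.8 and 33.2 CPM in T2MG, and at P60 3.26, 1.42, 1.88 and 1.28 CPM in Control against 17.8, 9.36, 14.0 and 10.4 CPM in T2MG. It rose at P15 (log2 fold change 1.57 ± 0.52, adjusted p = 0.0344) and P60 (2.71 ± 0.48, adjusted p = 0.000222). Per kilobase, Slc1a3 exceeded Slc1a2 by a ratio of 11.7 to 20.8 in all E16 libraries. The ratio was 57.3 to 151 in P15 Control and 3.52 to 8.1 in P15 T2MG, and 172 to 443 in P60 Control and 7.24 to 10.1 in P60 T2MG. The ratio thus did not separate the genotypes at E16 and separated them fully at both later stages.

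Gfap had 4.6, 17.1 and 12.1 CPM in P15 Control against 66.1, 59.3 and 108 CPM in P15 T2MG libraries. At P60 it had 6.1, 1.7, 2.1 and 1.92 CPM in Control against 38.6, 11.5, 21.1 and 21.1 CPM in T2MG. It rose at both stages, by a log2 fold change of 2.78 ± 0.54 (adjusted p = 0.00125) and 2.96 ± 0.49 (adjusted p = 0.00012, 3.59 without P60 Control 1). Gfap was the only astrocyte member besides Slc1a2 that rose at P15, and its level per kilobase relative to that of Slc1a2 was 4.73 to 6.02 in P15 Control and 9.64 to 20.9 in P15 T2MG. At P60 that ratio was 3.31 to 5.56 in Control and 3.65 to 6.43 in T2MG, and the genotypes overlapped.

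**Figure D5:**
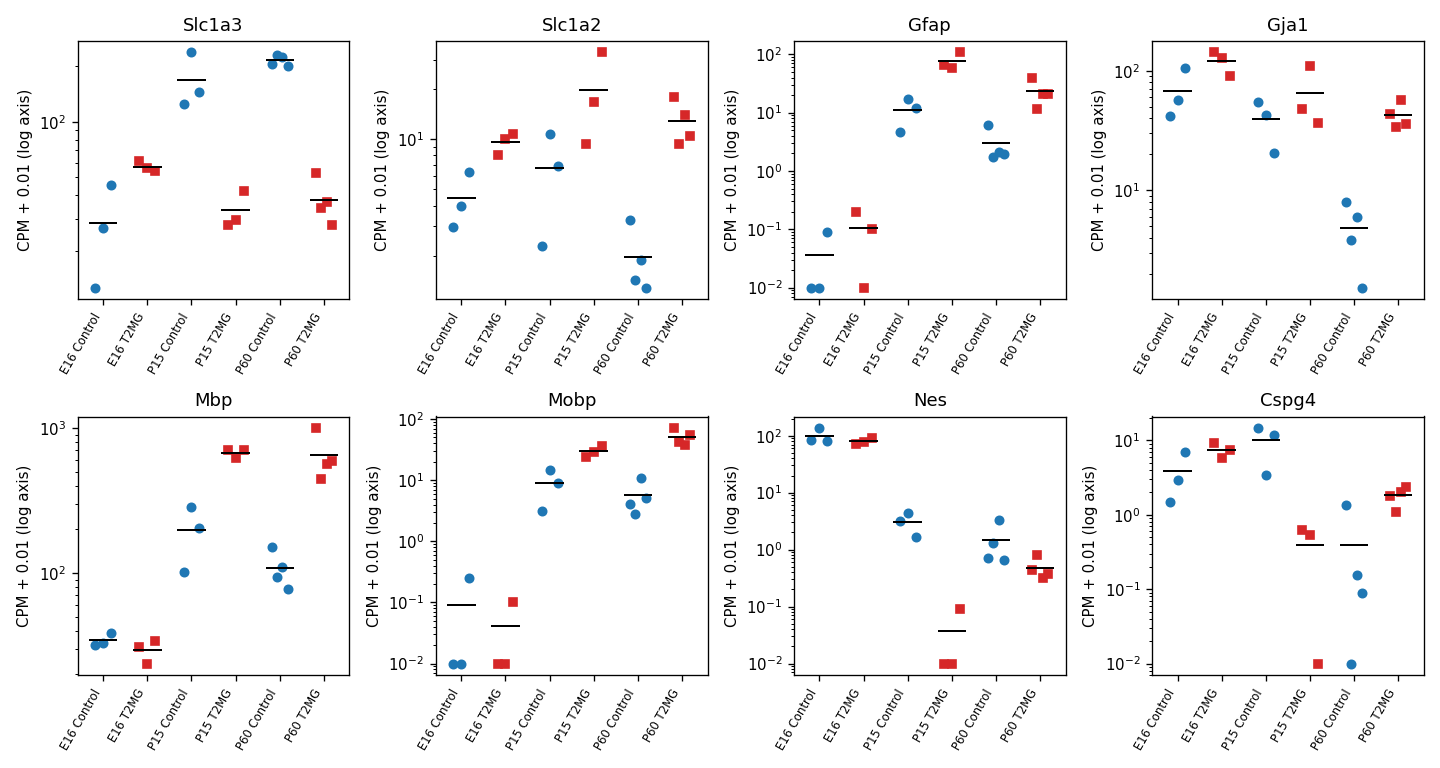
CPM + 0.01 (log axis) of Slc1a3, Slc1a2, Gfap, Gja1, Mbp, Mobp, Nes and Cspg4 in each library; circles are Control, squares T2MG, bars group means. Slc1a3 lay lower in T2MG at P15 and P60 while Slc1a2 and Gfap lay higher at P60, and Nes and Cspg4 were near 0 in P15 T2MG.

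At P60 Nes had 0.693, 1.28, 3.26 and 0.64 CPM in Control against 0.422, 0.802, 0.312 and 0.359 CPM in T2MG. The groups overlapped, and the log2 fold change of -1.65 ± 0.53 (adjusted p = 0.0197) was -0.9 without P60 Control 3 (adjusted p = 0.143). At E16, Nes had 84.8, 135 and 82.2 CPM in Control against 70.8, 76.8 and 89.6 CPM in T2MG and was the only neuron member with a fitted value below 0 there (-0.35 ± 0.4, adjusted p = 0.69).

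The genotype effect differed between E16 and P15 for 5 members, where 16.3% of all genes differed, 8.97% upward and 7.31% downward: Nes, Slc1a3, Sox9 and Cspg4 went down and Mbp went up. For Mbp the change of the effect was 2.0 ± 0.46 (adjusted p = 0.00777). Between P15 and P60 it differed for 8 members, all upward, where 8.02% of all genes differed and 5.63% went upward. These were Nes, Aqp4, Gja1, Sox9, Clu, Mag, Cspg4 and Pdgfra. Sox9 fell at P15 and rose at P60, and the change of its effect was positive (3.9 ± 0.91, adjusted p = 0.0163; 5.47 without P60 Control 1). Pdgfra had 8.19, 2.3 and 4.21 CPM in P15 Control against 3.63, 2.35 and 5.15 CPM in P15 T2MG, and its effect grew by 4.06 ± 0.88 (adjusted p = 0.0117). The count of 8 was 13 without P60 Control 1 and 4 without P15 Control 2 or P60 Control 2. These differences share the P15 libraries with the comparisons above.

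Further genes of the 3 cell types, from lists of 30, 25 and 20 genes outside the 34, were read in the same fit. At P60, 15 of 30 neuron, 19 of 25 astrocyte and 14 of 20 oligodendrocyte genes rose, and 1 astrocyte gene fell, beside 23.5% of all genes that rose and 15.7% that fell; their median log2 fold changes were 1.91, 2.41 and 2.61. Among neuron genes Celf4, an RNA-binding protein, had a mean of 0.752 ± 0.216 CPM (SD, n = 4) in Control and 6.53 ± 1.51 (n = 4) in T2MG. Syn1, a synaptic vesicle protein, had 1.4 ± 1.04 and 10 ± 0.744 CPM, and Camk2a, a kinase of excitatory synapses, 1.41 ± 0.636 and 6.95 ± 1.19 CPM. Among astrocyte genes Sox2, a progenitor transcription factor, had 0.0874 ± 0.131 and 2.66 ± 0.356 CPM, and Bcan, a proteoglycan of the brain matrix, 5.19 ± 1.7 and 42.1 ± 8.76 CPM. Fabp7, a lipid-binding protein of radial glia and astrocytes, had 0.881 ± 0.357 and 5.15 ± 2.28 CPM. Among oligodendrocyte genes Aspa, the enzyme that cleaves N-acetylaspartate, had 0.388 ± 0.324 CPM in Control against 17.2 ± 2.45 CPM in T2MG (log2 fold change 5.41 ± 0.56, adjusted p = 6.91e-07). Bcas1, a marker of oligodendrocytes that are forming myelin, had 1.6 ± 0.301 and 11.5 ± 1.94 CPM, and Ermn, a cytoskeletal protein of myelin, 0.299 ± 0.241 and 3.69 ± 1.13 CPM.

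At P15, of 30 neuron genes 9 rose and 1 fell, of 25 astrocyte genes 0 rose and 3 fell, and of 20 oligodendrocyte genes 2 rose and 0 fell, beside 11.7% of all genes that rose and 12.3% that fell. In both directions the astrocyte and oligodendrocyte shares were below those of all genes. Ina, a neuronal intermediate filament protein, had 0.393 ± 0.19 CPM (SD, n = 3) in Control and 2.26 ± 0.964 (n = 3) in T2MG, and Tbr1, a transcription factor of cortical neurons, 0.0226 ± 0.0391 and 0.605 ± 0.207 CPM. The one that fell, Elavl4, a neuronal RNA-binding protein, had 8.41 ± 0.79 and 1.94 ± 1.38 CPM. The astrocyte genes that fell were Glul, glutamine synthetase, with 473 ± 76.3 and 246 ± 77.3 CPM, the zinc transporter Slc39a12 with 35.5 ± 6.63 and 9.55 ± 7.07 CPM, and the organic anion transporter Slco1c1 with 66.5 ± 13 and 17.1 ± 9.34 CPM. Aspa had 2.64 ± 1.26 CPM in Control against 11.3 ± 3.55 CPM in T2MG, and Bcas1 4.05 ± 2.65 and 13 ± 1.53 CPM. Clu, among the members, had 359.5, 295 and 478 CPM in P15 Control against 242, 216 and 175 CPM in P15 T2MG libraries (log2 fold change -0.84 ± 0.61, adjusted p = 0.334), and Gap43 had 0.441, 4.47 and 1.98 CPM in Control against 1.59, 4.77 and 6.87 CPM in T2MG. At E16, 0 genes of these additional lists were called, and their medians were 0.87, 0.95 and 0.72.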

How the data were processed

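RNA of sorted microglia was purified with a Qiagen RNeasy Plus Micro kit and turned into cDNA with a Clontech SMART-Seq ultra low input kit, per the labels' protocols. A table of raw counts per gene symbol, with a column for each library, was deposited by the authors. TopHat2 0.7, Cufflinks 2.2.1 and mm10 are named in the submitters' processing notes, with no role; nothing in the sources used here gives the counting tool or its use of strand. Of 24421 entries, 27 that carried dates in place of symbols were left out (0.122% to 0.256% of the counts of a library).

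In R 4.3.3, edgeR 4.0.16 (filter by group, 15568 genes kept, TMM scaling, quasi-likelihood test on 1 mean per group over all 20 libraries) gave every log2 fold change, standard error and adjusted p; a gene was called, and is said to have risen, fallen or changed, when its p, adjusted by Benjamini-Hochberg over every tested gene, was under 0.05. The common dispersion was 0.107. Simulated counts (15348 genes) were drawn at the real mean of each stage, the same for both genotypes before changes were added. Changes were placed only in genes with a mean of at least 20 counts. At E16, P15 and P60 the fit recovered 33%, 29% and 48% of those changed by a fold of 2. For a fold of 4 it recovered 72%, 80% and 76%. These rates do not cover members with fewer counts. Alternatives were DESeq2 1.42.0, limma 3.58.1 voom, other scaling and filtering, only the groups compared, a replicate block and leaving out each library. Replicates of a group differed by more than sampling noise (chi-square of 5.25 to 152 per gene), so each library counted once. The labels do not say how replicate libraries relate beyond separate animals, and the p-values measure the spread between them. Exonic lengths and overlaps came from GENCODE M21 (GRCm38, the assembly mm10) and promoters from RefSeq GRCm38.p6.

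The members and lists were chosen with earlier results of these data known. Values per library are given for Slc1a3, Gfap, members called in a genotype comparison and the 2 highest members per kilobase of each cell type in Control of each stage; of the other lists, up to 3 genes with the smallest adjusted p per comparison could be named. Reads without molecular identifiers are not independent molecules; intervals and floors therefore cover counting error alone. Reads of Map2, Neurod1, Nefl, Slc1a2, Fgfr3, Aldh1l1, Olig1 and Pdgfra may include those of genes whose exons overlap theirs.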

Additional observations from a re-analysis of the deposited data

Results flagged for a closer look

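P60 Control 1 was far above the other 3 libraries of its group for 8 members: it had 11.4 CPM of Snap25, 1.39 of Neurod1, 3.81 of Syt1, 1.66 of Gap43, 6.1 of Gfap, 12.2 of Sox9, 12.5 of Aldh1l1 and 1.32 of Cspg4. P60 T2MG 2 lay far below its group for Clu, with 149.6 CPM. Only the P60 groups, with 4 libraries each, were screened, so libraries of E16 and P15 were not. Chance alone marks about 1 in 20 groups, and at most 74 were checked. Groups with equal values or with no library above 3 counts were skipped.

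The genotype effect differed between stages by the test of the difference itself. It did so for 5 of the 34 members from E16 to P15, a share below the 16.3% of all genes. For P15 to P60 it did so for 8, where 8.02% of all genes differed. From E16 to P15 the log2 fold change of T2MG over Control moved by -6.14 for Nes, -3.36 for Slc1a3, -3.25 for Sox9, 2.0 for Mbp and -5.61 for Cspg4. From P15 to P60 it moved by 4.84 for Nes, 3.3 for Aqp4, 2.43 for Gja1, 3.9 for Sox9, 2.7 for Clu, 1.26 for Mag, 6.84 for Cspg4 and 4.06 for Pdgfra. At P15, Nes rested on 1 count over the T2MG group, so the size of its values is uncertain. The calls on Sox9 from E16 to P15 and on Aqp4, Gja1, Clu and Mag from P15 to P60 each ended when single libraries were left out.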

How the results depend on the processing

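No value of a called member reversed under any alternative. Of 2481 values recomputed for called members, 2315 kept their direction and call and 166 kept the direction but lost the call. Members not called in the reported fit are outside this count. Of those, Neurod1 at P60 changed direction, to a log2 fold change of 4.84 without P60 Control 1. Over all genes, the reported fit called 498 at E16, DESeq2 961, limma voom 1198, only the groups compared 319 and the replicate block 276. The count of members called at E16, 0 in the reported fit, was 4 with DESeq2, 11 with limma voom, 1 with only the groups compared, 1 with the replicate block, and 0 to 4 when a library was left out. At P15 it was 12, 9 with only the groups compared (4 higher and 5 lower in place of 8 and 4), and 6 to 15 without a library; the calls on Map2 and Sox9 ended under the most alternatives. At P60 it was 30, 25 with only the groups compared, and 28 to 33 without a library. The change of the genotype effect was called for 5 members from E16 to P15 (4 to 6 without a library) and for 8 from P15 to P60 (5 with only the groups compared, 4 to 13 without a library). Control P15 against E16 gave 24 (22 to 25), and Control P60 against P15 gave 13 (6 with only the groups compared, 8 to 18 without a library). The E16 libraries were the shallowest, and P60 levels of Dcx, Neurod6 and Neurod1 lie near a few counts. Same-numbered Control and T2MG libraries correlated at 0.01, 0.33 and 0.1 at E16 and at 0.13, -0.03 and -0.03 at P15. At P60 the correlations were 0.22, 0.13, 0.01 and -0.06. With so few libraries per group, these values cannot decide whether the numbers pair the libraries, and the reported fit assumed no pairing. With the replicate block 12 members were called at P15 and 32 at P60. The cause of these shifts was not tested.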
